A study of Mus musculus with 27 samples.

Results

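The step in TCDD dose from 0.1 and 0.3 µg/kg to 1 and 3 µg/kg was examined in the ileal epithelium of 12 of 27 mice. Mice were selected by their labelled dose alone. The 6 mice labelled 1 or 3 µg/kg (upper arm, 3 mice per dose) were compared with the 6 mice labelled 0.1 or 0.3 µg/kg (lower arm, 3 mice per dose), with no vehicle mice in either arm. All were males of strain C57BL/6 that received TCDD in sesame oil by gavage at intervals of 4 days over 28 days and were sampled on postnatal day 56, so both arms carried the oil and the gavage. RNA-Seq libraries were made from scrapings of the distal ileal epithelium, 1 library per mouse. Mice were co-housed and fasted before sampling, and neither the cage nor the sampling hour of each mouse is given in the sources used here. The 15 mice outside the comparison received vehicle, 0.01 or 0.03 µg/kg (9 mice), or 10 or 30 µg/kg (6 mice), and are used only to follow the same genes in other animals.

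TCDD is a persistent ligand of the aryl hydrocarbon receptor (AhR), a transcription factor that dimerizes with ARNT and binds dioxin response elements (DREs). *Cyp1a1*, *Cyp1b1*, *Ahrr* and *Tiparp* are among its direct targets. Intestinal cells also carry a circadian clock, in which ARNTL (BMAL1) pairs with CLOCK or NPAS2 at E-boxes to drive the *Per*, *Cry* and *Nr1d* genes and the PAR bZIP factors DBP, TEF and HLF. NR1D1 and NR1D2 (REV-ERBs) in turn repress *Arntl*, *Npas2* and *Nfil3* through RORE sites, and NFIL3 opposes the PAR bZIP factors at D-boxes.

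Between 1 and 3 µg/kg on one side and 0.1 and 0.3 µg/kg on the other, 69 genes differed, of which 45 were higher and 24 were lower at the upper doses. *Cyp1a1* rose most, 42.4-fold (log2 5.41, or 6.18 without mouse 36 of the 0.3 µg/kg group). The next 4 largest rises were those of clock genes, namely *Dbp* (18.1-fold), *Ciart* (9.96-fold), *Per3* (5.70-fold) and *Tef* (4.74-fold). Among genes whose arms did not overlap, with a mean of at least 1 CPM, *Nfil3*, *Tmem252* and *Arntl* fell most, 4.09-, 3.35- and 2.88-fold. The largest fall of all, 2.11 on the log2 scale, was in a gene below that level. Transporters of the apical membrane (*Abcc2*, *Abcb1a*) and the genes *Cyp2u1*, *Tns4* and *Trib3* were induced 2.07- to 2.52-fold. Other AhR targets did not pass the limits at this step.

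Genes were counted as changed at an adjusted p of at most 0.05 in edgeR's quasi-likelihood test (Benjamini-Hochberg over 16741 genes) with a fold change of at least 1.5. These 69 genes are 0.412% of the genes tested (0.269% higher and 0.143% lower). Without the fold minimum 132 genes passed, and 1800 had an unadjusted p below 0.05. The 6 mice of one arm lay entirely above or below the 6 of the other for 36 of the 45 higher and 16 of the 24 lower genes. Over all genes tested the share was 1.72%, but the 69 genes were chosen on these same mice, so their separation is not a test. Leaving out single mice left 33 to 45 higher and 11 to 31 lower genes, with 13 lower genes without mouse 44 (1 µg/kg) and 11 without mouse 52 (3 µg/kg). The median log2 fold change over all genes was −0.01.

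Libraries held 12.32 to 16.72 M counts on genes in the lower arm and 13.22 to 17.14 M in the upper arm, so sampling error is small except for genes with few counts. Mitochondrial shares of 1.83 to 2.39% and 1.91 to 2.22% overlapped between arms. Replicates of a dose differed by 9.43 to 25.08 times the sampling variance over genes, and no library appeared more than once. Library index use is not in the sample labels and was inferred from the index sequence in each library's name. A mouse has the second use where a mouse of lower number carries the same index. Mouse numbers rise with dose, so this rule itself ties index use to dose. What a use stands for is not given in the sources used here. Index use moved with dose. All 6 lower-arm mice and mouse 41 (1 µg/kg) carried the first use of an index, and the other 5 upper-arm mice carried the second, so the effects of dose and of index use cannot be told apart except within 1 µg/kg. Mice 35 and 36 (0.3 µg/kg) lay between the arms for clock genes, and mouse 14 (0.01 µg/kg), outside the comparison, lay nearer to the upper arm. The enterocyte markers *Vil1*, *Epcam* and *Fabp2* and the distal ileal markers *Fabp6* and *Slc10a2* were present in every mouse. None of the 16 marker lists, for the epithelial, immune, stromal, pancreatic and blood cell types that a scraping can hold, had a changed gene. Summed pancreatic acinar markers reached 67.0 CPM in 1 upper-arm mouse against 1.35 to 2.41 CPM in the lower arm, and their part in the results was not tested. In bulk RNA, fewer cells of a type and less RNA per cell cannot be told apart.

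Promoter windows are shown for the genes on which the results turn, *Cyp1a1* and 5 clock genes, to place the letters of AhR and clock motifs beside the expression values. Each window is RefSeq sequence (GRCm38.p6) from 250 bases before to 50 bases after the annotated start, written 5′ to 3′ on the strand of the gene. Capitals mark the DRE core GCGTG, the E-box CACGTG, the D-box TTANNTAA and the RORE core TNGGTCA, searched on both strands. Neither the DRE core nor the E-box contains the other, although both hold the letters CGTG. For *Arntl*, the first of its windows is shown.
*Cyp1a1*, chr9:57697363-57697662, plus strand: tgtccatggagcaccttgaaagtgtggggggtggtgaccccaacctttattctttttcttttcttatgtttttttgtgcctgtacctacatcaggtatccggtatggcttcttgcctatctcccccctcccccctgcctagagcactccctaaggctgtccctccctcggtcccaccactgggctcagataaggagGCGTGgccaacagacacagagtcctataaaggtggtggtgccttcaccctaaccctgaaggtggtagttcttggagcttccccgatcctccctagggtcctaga
*Dbp*, chr7:45704997-45705296, plus strand: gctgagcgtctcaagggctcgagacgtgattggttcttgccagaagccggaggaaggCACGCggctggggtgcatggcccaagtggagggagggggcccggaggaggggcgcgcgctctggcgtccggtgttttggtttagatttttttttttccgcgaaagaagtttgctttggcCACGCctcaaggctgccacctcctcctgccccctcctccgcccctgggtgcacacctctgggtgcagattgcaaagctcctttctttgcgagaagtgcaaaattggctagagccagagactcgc
*Ciart*, chr3:95882179-95882478, minus strand: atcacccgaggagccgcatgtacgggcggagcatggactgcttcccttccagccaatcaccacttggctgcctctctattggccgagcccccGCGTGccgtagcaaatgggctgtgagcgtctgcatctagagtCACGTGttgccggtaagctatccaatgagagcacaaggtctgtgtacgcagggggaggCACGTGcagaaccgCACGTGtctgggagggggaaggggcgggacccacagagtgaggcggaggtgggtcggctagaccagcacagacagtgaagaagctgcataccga
*Per3*, chr4:151044616-151044915, minus strand: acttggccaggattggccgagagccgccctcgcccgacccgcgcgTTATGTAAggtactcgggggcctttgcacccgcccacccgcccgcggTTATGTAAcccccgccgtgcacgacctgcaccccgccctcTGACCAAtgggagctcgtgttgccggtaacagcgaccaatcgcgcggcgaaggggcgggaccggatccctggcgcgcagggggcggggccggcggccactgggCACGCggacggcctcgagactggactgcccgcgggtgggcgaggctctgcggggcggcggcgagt
*Arntl*, chr7:113207215-113207514, plus strand: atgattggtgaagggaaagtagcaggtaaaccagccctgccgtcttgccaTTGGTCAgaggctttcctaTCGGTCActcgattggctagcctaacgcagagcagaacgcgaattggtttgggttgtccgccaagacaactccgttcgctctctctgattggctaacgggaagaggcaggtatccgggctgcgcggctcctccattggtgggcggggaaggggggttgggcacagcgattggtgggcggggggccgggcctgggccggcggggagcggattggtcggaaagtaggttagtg
*Nfil3*, chr13:52980990-52981289, minus strand: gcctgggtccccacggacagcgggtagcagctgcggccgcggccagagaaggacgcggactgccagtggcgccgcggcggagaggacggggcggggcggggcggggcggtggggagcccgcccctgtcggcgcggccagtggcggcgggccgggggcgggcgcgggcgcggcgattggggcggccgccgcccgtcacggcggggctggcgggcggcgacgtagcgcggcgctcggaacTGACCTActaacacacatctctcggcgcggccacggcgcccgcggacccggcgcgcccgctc

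The *Cyp1a1* window held 1 DRE core, beginning 54 bases before the start. *Dbp* held 2 DRE cores. *Ciart* held 3 E-boxes, beginning 116, 58 and 44 bases before the start, with 1 DRE core. In *Per3*, 2 D-boxes, 1 RORE core and 1 DRE core were present. The repressed genes *Arntl* and *Nfil3* held 2 and 1 RORE cores, respectively, and neither held an E-box or a DRE core. *Npas2*, the other clock gene that fell, held 1 DRE core and no RORE core or E-box. Of the 9 clock genes that rose 8 had a window, and 8 held a DRE core, 2 an E-box, 2 a D-box and 2 a RORE core. Of 27025 genes with a window, 35.2% held a DRE core, 8.09% an E-box, 6.93% a D-box and 12.4% a RORE core. Windows were found for 29 of the 45 higher genes, of which 19 (65.5%) held a DRE core, 7 (24.1%) an E-box, 2 (6.90%) a D-box and 8 (27.6%) a RORE core. Of the 24 lower genes 18 had a window, and 4 (22.2%) held a DRE core, 1 (5.56%) an E-box and 3 (16.7%) a RORE core. GC content averaged 59.8% and 62.1% in the windows of higher and lower genes against 53.6% over all genes. In the windows of the clock genes that rose it averaged 64.9%. The part of GC content in these shares was not tested. Letters in a window are not evidence of binding.

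*Cyp1a1* (chr9:57687928-57703824), which encodes the AhR-inducible monooxygenase, was close to the detection limit in the lower arm. Its values were 0.0692, 0.557 and 0.335 CPM (counts per 1 M counts on genes, after TMM normalization) for the 0.1 µg/kg mice and 0.230, 0 and 0.887 CPM for the 0.3 µg/kg mice. The 0 of mouse 35 allows up to 0.190 CPM (3 counts, counting error only). At 1 µg/kg the values were 3.32, 4.68 and 6.30 CPM, and at 3 µg/kg they were 14.2, 64.7 and 57.3 CPM. Every upper-arm mouse was above every lower-arm mouse, and the counts behind these values ran from 0 to 14 in the lower arm and from 59 to 925 in the upper arm. Induction was 42.4-fold (log2 5.41 ± 0.49 SE, adjusted p = 1.78e-06, edgeR), with an exact permutation p of 0.00216 over the 12 mice (two-sided), the smallest that 924 splits allow. Leaving out single mice gave log2 changes of 5.13 to 6.18, the highest without mouse 36, which had the most *Cyp1a1* in the lower arm. *Cyp1a1* was the 1 gene (0.00597% of those tested) that changed between 1 and 3 µg/kg, 9.56-fold (log2 3.26 ± 0.44 SE, adjusted p = 0.00231, edgeR). DESeq2 made the same number of calls at that step, limma and the edgeR fit without mouse 41 made 0, the fit without mouse 50 made 2, and 770 genes had an unadjusted p below 0.05.

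Other AhR targets moved little at this step. *Ahrr*, the AhR repressor, had 3.30 to 3.79 CPM (median 3.34) in the lower arm. Its values were 4.28, 4.22 and 3.79 CPM at the 1 µg/kg dose and 5.98, 5.67 and 6.01 CPM at the 3 µg/kg dose. The arms did not overlap, the lowest upper-arm mouse lying just above the highest lower-arm mouse, and the 1.43-fold difference passed the adjusted p (0.0283, edgeR) but not the fold minimum. *Cyp1b1*, a related monooxygenase, had 1.11 to 3.02 CPM in the lower arm and 2.15 to 7.04 CPM in the upper arm. Its arms overlapped, with the highest values in 2 mice at 3 µg/kg, and the 1.86-fold difference did not pass (adjusted p = 0.0993, edgeR). *Tiparp*, a mono-ADP-ribosyltransferase that limits AhR activity, had 27.0 to 43.9 CPM and 26.2 to 37.8 CPM, and *Nqo1*, a quinone reductase, had 12.8 to 17.3 CPM and 7.37 to 21.3 CPM. Arms overlapped for both genes, with log2 differences of −0.09 ± 0.11 SE for *Tiparp* and 0.11 ± 0.14 SE for *Nqo1*. *Cyp1a2* had 0 counts in all 12 mice, which allows up to 0.169 to 0.239 CPM per library, and was not tested.

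**Figure D1:**
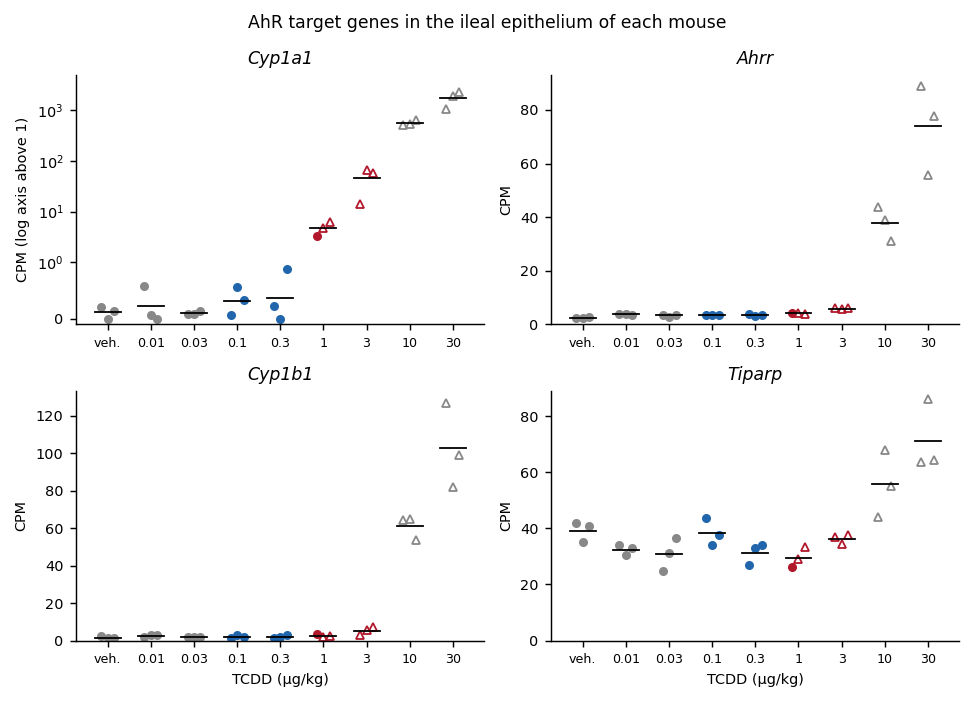
CPM of *Cyp1a1* (log axis above 1), *Ahrr*, *Cyp1b1* and *Tiparp* in each of 27 mice by TCDD dose, with blue for the lower arm, red for the upper arm and grey for mice outside the comparison. Circles are the first library index use, triangles the second, and bars are means of 3 mice. *Cyp1a1* left the range of the lower doses at 1 µg/kg, whereas *Cyp1b1* and *Tiparp* overlapped between the arms and were higher at 10 and 30 µg/kg.

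Of the 19 listed AhR targets 16 were tested, and 1 (*Cyp1a1*) passed, with a median log2 fold change of 0.11 over the list. At 10 and 30 µg/kg against vehicle, 0.01 and 0.03 µg/kg, 8 of the 16 passed, all higher, namely *Cyp1a1*, *Cyp1b1*, *Ahrr*, *Tiparp*, *Ugt1a6a*, *Ugt1a6b*, *Ugt1a7c* and *Gsta4*. That comparison shares no mouse with the other and called 7.87% of genes, but library index use moved with dose in it too. The difference between the comparisons was itself tested within the same edgeR fit. It passed, with the larger change at 10 and 30 µg/kg, for 7 of the 16, against 0.705% of all genes tested. These 7 are the 8 named above without *Gsta4*. The 8 were chosen at 10 and 30 µg/kg, so the share among them is not a test. For *Ahrr* the log2 change was 3.56 ± 0.15 SE larger over the wider range of doses (adjusted p = 1.32e-13), and for *Cyp1b1* it was 4.41 larger (adjusted p = 1.18e-08). The AhR itself and the other 6 genes of its receptor complex list held no changed gene.

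Clock genes made up 12 of the 69. The lists of clock activators (5 genes) and of clock repressors and outputs (16 genes) were all tested, and 9 rose, 3 fell and 9 did not pass. Of all genes tested 0.269% rose and 0.143% fell. The lists were chosen with earlier results of these data known, so these counts are not a test. By role, 2 of 5 activators and *Nfil3* fell, and both REV-ERBs, 2 of 3 *Per* genes, *Ciart*, *Usp2* and the 3 PAR bZIP factors rose. Annotated genes overlap *Nr1d1*, *Dbp*, *Per3*, *Tef*, *Ciart* and *Npas2*, and the strand setting of the counting is not given in the sources used here.

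*Arntl* (chr7:113207465-113314126) encodes BMAL1, the essential activator. It had 56.0, 56.3 and 57.5 CPM at the 0.1 µg/kg dose and 55.4, 38.5 and 41.8 CPM at the 0.3 µg/kg dose. Values were 13.8, 34.1 and 19.8 CPM at the 1 µg/kg dose and 15.6, 14.3 and 11.8 CPM at the 3 µg/kg dose. The arms did not overlap, although mouse 43 at 1 µg/kg came close to mouse 35 at 0.3 µg/kg, and *Arntl* was repressed 2.88-fold (log2 −1.52 ± 0.23 SE, adjusted p = 0.00122). *Npas2*, the partner of BMAL1 that can stand in for CLOCK, had a lowest, median and highest value of 70.2, 84.4 and 108 CPM in the lower arm and 27.0, 34.9 and 48.8 CPM in the upper arm. Its arms were well separated and it was repressed 2.29-fold (adjusted p = 0.00275). *Clock* itself had 131 to 163 CPM and 117 to 154 CPM, with a log2 difference of −0.08 ± 0.08 SE, and *Rora*, another activator of *Arntl*, did not pass either.

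*Nr1d1* (REV-ERBα) had 28.7, 25.5 and 24.2 CPM at the 0.1 µg/kg dose and 44.8, 88.2 and 62.7 CPM at the 0.3 µg/kg dose. It reached 224, 129 and 134 CPM at the 1 µg/kg dose and 138, 144 and 141 CPM at the 3 µg/kg dose. The arms did not overlap, mouse 41 stood above the other upper-arm mice, and the rise was 3.66-fold (adjusted p = 0.0239). This call was lost on leaving out any 1 of 7 of the 12 mice (adjusted p up to 0.0845), with log2 changes of 1.73 to 2.02. *Thra*, which overlaps *Nr1d1* on the opposite strand, had mean levels of 81.2 and 93.3 CPM in the arms. *Nr1d2* (REV-ERBβ) had 21.9 to 50.8 CPM (median 28.3) in the lower arm and 81.01 to 143 CPM (median 115) in the upper arm, a 3.59-fold rise (adjusted p = 0.00199) without overlap.

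*Per3*, a period gene, had 4.85 to 11.9 CPM (median 7.38) in the lower arm and 28.8 to 68.1 CPM (median 42.9) in the upper arm. The arms were separated by more than the whole lower-arm range and the rise was 5.70-fold (log2 2.51 ± 0.29 SE, adjusted p = 7.71e-05). *Per2* had 15.2 to 29.3 CPM (median 21.2) and 41.9 to 85.0 CPM (median 54.6), again without overlap, and rose 2.69-fold (adjusted p = 0.000216). *Per1*, the third period gene, had 22.9 to 38.5 CPM and 19.1 to 67.9 CPM with overlapping arms and did not pass (adjusted p = 0.398). *Ciart*, a repressor of BMAL1-CLOCK, had 0.0670 to 0.507 CPM (median 0.149) in the lower arm and 0.998 to 4.07 CPM (median 2.08) in the upper arm. These values rest on 1 to 8 and 13 to 63 counts per mouse, so the size of its fold change is uncertain. All upper-arm mice were higher, and the rise was 9.96-fold (adjusted p = 0.00111). Of the cryptochromes, *Cry1* had a log2 difference of −0.65 ± 0.20 SE and *Cry2* one of 0.45 ± 0.19 SE, and neither passed (adjusted p = 0.160 and 0.368).

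The PAR bZIP factors are clock outputs that activate detoxification and transport genes. *Dbp* (chr7:45705088-45710203) had 1.18, 1.67 and 0.804 CPM at the 0.1 µg/kg dose and 1.15, 4.94 and 2.34 CPM at the 0.3 µg/kg dose, against 50.6, 18.3 and 18.2 CPM at the 1 µg/kg dose and 30.2, 32.5 and 50.4 CPM at the 3 µg/kg dose. The lowest upper-arm mouse stood far above the highest lower-arm mouse, and induction was 18.1-fold (log2 4.18 ± 0.58 SE, adjusted p = 0.000423). *Tef* rose 4.74-fold (adjusted p = 0.000751), from 13.1 to 37.9 CPM (median 19.6) to 72.7 to 128 CPM (median 101), without overlap. *Hlf* was low, with 0.134 to 1.204 CPM and 0.921 to 2.98 CPM, and rose 3.79-fold (adjusted p = 0.0142) although 2 upper-arm mice lay within the lower-arm range. Its call was lost on leaving out either of 2 mice. *Nfil3*, the repressor that competes with these factors, had 21.8, 24.3 and 26.1 CPM at 0.1 µg/kg, 24.3, 14.2 and 15.01 CPM at the 0.3 µg/kg dose and 3.88 to 7.91 CPM (median 4.74) in the upper arm. No mice overlapped, and *Nfil3* fell by 2.03 on the log2 scale, 4.09-fold (adjusted p = 0.00137). *Usp2*, a clock-controlled deubiquitinase, rose 1.62-fold (adjusted p = 0.00177).

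**Figure D2:**
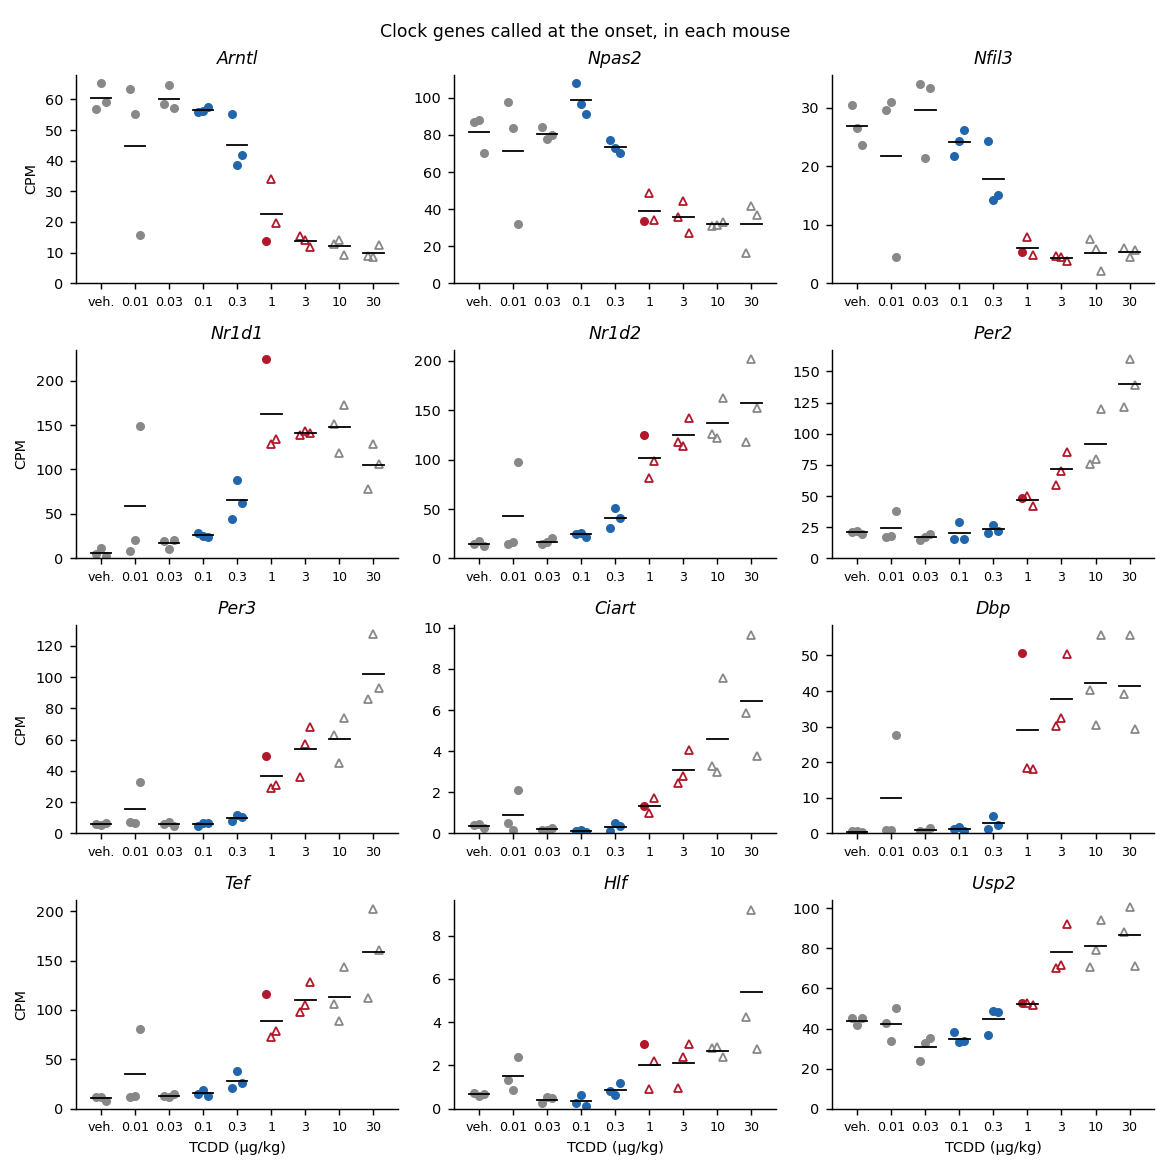
CPM of the 12 changed clock genes in each of 27 mice by TCDD dose, coloured and marked as in the plot of AhR targets, with bars at the mean of 3 mice. Mice at 1 and 3 µg/kg (red) were apart from those at 0.1 and 0.3 µg/kg (blue) for every gene except *Hlf*, and 1 mouse at 0.01 µg/kg lay nearer to the upper arm.

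Within the arms the clock genes were not uniform. The first principal component of the 21 clock genes over 27 mice held 68% of their variance. It was −4.08 to −2.90 in the 0.1 µg/kg mice and −2.73, −1.29 and −1.28 in the 0.3 µg/kg mice. The 1 µg/kg mice lay at 0.69 to 2.73 and the 3 µg/kg mice at 2.48 to 4.21. Each mouse at 0.3 µg/kg lay above those at 0.1 µg/kg, but 0 genes changed between these doses in edgeR, DESeq2 or limma, with 704 at an unadjusted p below 0.05. Of the 45 higher genes 34 were also higher at 0.3 than at 0.1 µg/kg (median log2 0.24) and 37 were higher at 3 than at 1 µg/kg (median log2 0.15). Among the 24 lower genes these numbers were 22 (median log2 −0.28) and 20 (−0.27). Of these within-arm differences, that of *Cyp1a1* between 1 and 3 µg/kg alone passed the limits. Leaving out mice 35 and 36, an alternative chosen after seeing the data, left mouse 33 as the only mouse at 0.3 µg/kg, so the calls of that fit are not counted. The log2 change of *Cyp1a1* between the arms was 5.74 there, against 5.41 with all mice.

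**Figure D3:**
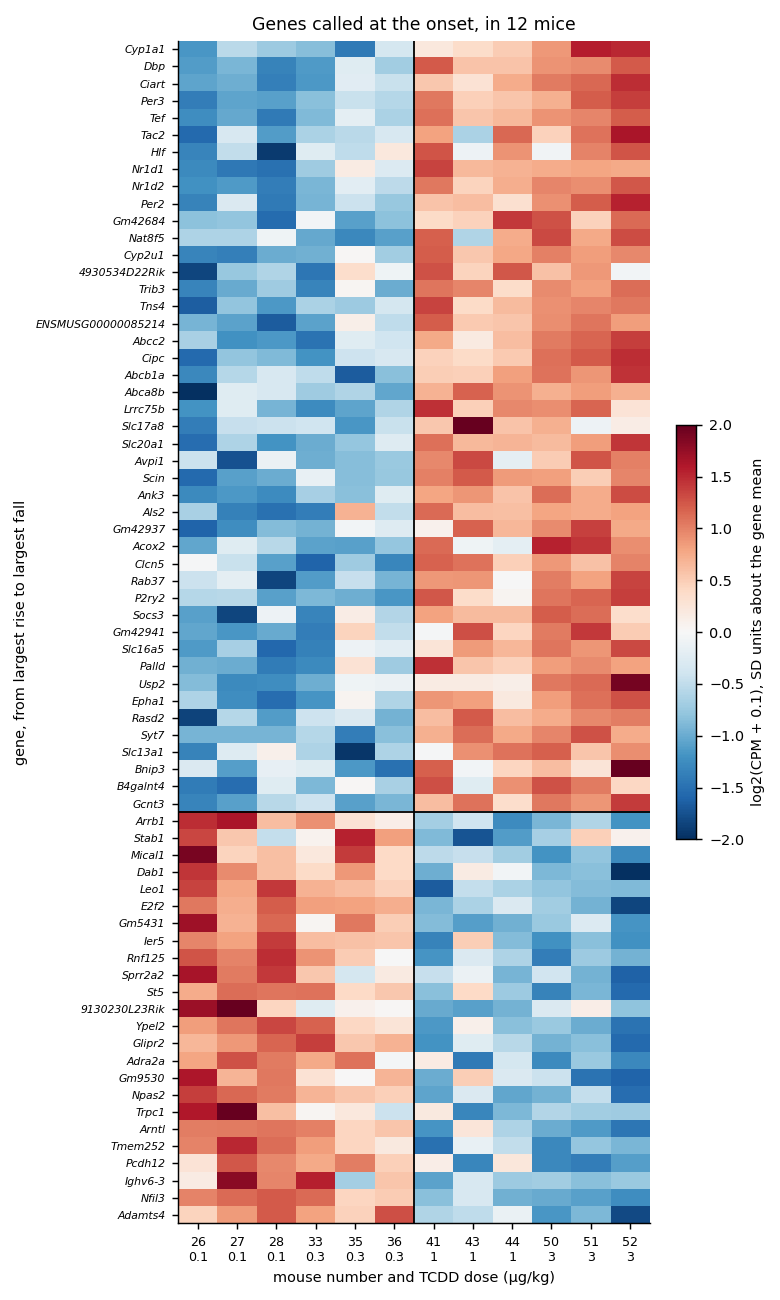
Expression of the 69 changed genes (rows, from the largest rise to the largest fall) in the 12 mice (columns, lower arm left of the line), as log2(CPM + 0.1) in SD units about each gene's mean, limited to ±2. The genes were chosen on these mice, so the contrast across the line is the selection itself. Mice 35 and 36 at 0.3 µg/kg were paler than the other lower-arm mice for most clock genes.

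Beyond *Cyp1a1* and the clock lists, 35 genes rose and 21 fell. *Abcc2*, the canalicular and apical exporter of conjugates, had 158 to 274 CPM (median 205) in the lower arm and 329 to 560 CPM (median 454) in the upper arm. It rose 2.11-fold without overlap (adjusted p = 0.0276), a call that was lost on leaving out any 1 of 9 mice (adjusted p up to 0.0951). *Abcb1a*, which encodes P-glycoprotein, an apical efflux pump, had 419 to 746 CPM (median 635) and 1048 to 1595 CPM (median 1232), and rose 2.07-fold (adjusted p = 0.00589). Reads of *Gm42684*, a transcript annotated within *Abcb1a*, rose with it. *Cyp2u1*, a fatty acid hydroxylase, had 30.3 to 62.7 CPM and 81.9 to 117 CPM and rose 2.52-fold (adjusted p = 0.00133), as did the low 4930534D22Rik on its opposite strand. *Tns4*, a focal adhesion protein, had 115 to 215 CPM and 305 to 486 CPM and rose 2.34-fold (adjusted p = 0.00193). *Trib3*, a stress-inducible pseudokinase and the 1 changed gene of 16 unfolded protein response genes, had 3.05 to 6.08 CPM and 7.22 to 10.5 CPM and rose 2.42-fold (adjusted p = 0.0107). Arms did not overlap for these genes except 4930534D22Rik, which had 0.208 to 1.01 CPM and 0.775 to 1.80 CPM.

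Some of the remaining higher genes, named after their values were seen, encode transporters. *Slc20a1*, a phosphate transporter, had 14.3 to 22.9 CPM in the lower arm and 31.9 to 42.9 CPM in the upper arm (log2 0.96). *Slc16a5*, of the monocarboxylate transporter family, had 75.9 to 117 CPM and 131 to 180 CPM (log2 0.71), and the chloride transporter *Clcn5* had 69.6 to 112 CPM and 130 to 160 CPM (log2 0.74). Arms did not overlap for these 3 genes, whereas the sulfate transporter *Slc13a1* overlapped, with 344 to 629 CPM and 607 to 867 CPM (log2 0.65). *Scin*, which encodes the actin-severing protein scinderin, had 206 to 339 CPM and 425 to 551 CPM (log2 0.91), and *Ank3* (ankyrin G) had 142 to 202 CPM and 267 to 343 CPM (log2 0.89). *Syt7*, a synaptotagmin, had 37.9 to 46.2 CPM and 63.3 to 72.8 CPM (log2 0.66, adjusted p = 0.000423). *Cipc*, a CLOCK-interacting repressor outside the lists, had 24.5 to 42.1 CPM and 56.9 to 91.3 CPM (log2 1.06). *Socs3*, an inhibitor of cytokine signalling, had 40.2 to 77.0 CPM and 82.4 to 109 CPM (log2 0.72). None of these last 5 genes overlapped between the arms.

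Among repressed genes, *Tmem252*, a transmembrane protein, had 18.7, 27.0 and 20.3 CPM at the 0.1 µg/kg dose, 16.7, 12.4 and 10.5 CPM at the 0.3 µg/kg dose, and 3.04 to 8.14 CPM in the upper arm. The arms did not overlap, and *Tmem252* was repressed 3.35-fold (adjusted p = 0.000423). *Glipr2* had 25.7 to 36.4 CPM and 10.9 to 18.7 CPM and was repressed 2.08-fold (adjusted p = 0.00122). *E2f2*, an E2F transcription factor (47.5 to 54.7 CPM and 22.5 to 35.4 CPM), and *Ier5*, an immediate early gene (71.8 to 96.0 CPM and 37.6 to 70.3 CPM) were repressed 1.67- and 1.73-fold. *Leo1*, a subunit of the PAF1 elongation complex, was repressed 1.65-fold, *Dab1*, a reelin adaptor, 1.64-fold and *Mical1*, an actin-oxidizing enzyme, 1.64-fold. *Ypel2* was repressed 1.99-fold and *Rnf125*, a ubiquitin ligase, 1.76-fold. Arms did not overlap for any of these genes. On leaving out 1 mouse, the calls of *Ypel2*, *Ier5*, *Mical1* and *Rnf125* were lost in 3, 6, 6 and 8 of 12 fits, and those of *Tmem252*, *Glipr2*, *E2f2*, *Leo1* and *Dab1* in 0.

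Genes of ileal bile acid handling were mostly below the limits. *Slc51a*, a subunit of the basolateral exporter OSTα/β, had 446 to 530 CPM in the lower arm and 533 to 708 CPM in the upper arm. Its arms did not overlap and the adjusted p was 0.00272 (edgeR), but the 1.35-fold difference was below the fold minimum. *Slc51b*, the other subunit, had 213 to 241 CPM and 174 to 294 CPM with a log2 difference of 0.08 ± 0.09 SE. *Slc10a2*, the apical bile acid transporter ASBT, had 189 to 381 CPM and 335 to 497 CPM and did not pass (1.44-fold, adjusted p = 0.192). *Fgf15*, the hormone that signals bile acid uptake to the liver, spread from 42.8 to 94.0 CPM in the lower arm. At 1 µg/kg it had 23.5, 258 and 102 CPM, while 3 µg/kg gave 98.0 to 127 CPM. The lowest of these was mouse 41 and the highest mouse 43. The 2.13-fold difference did not pass (adjusted p = 0.245), but it passed without mouse 41 (log2 1.34, adjusted p = 0.0412) and without a filter on low counts (adjusted p = 0.0375), and its direction turned in both fits with library index use. At 10 and 30 µg/kg against vehicle, 0.01 and 0.03 µg/kg, *Fgf15* fell by 1.81 on the log2 scale (adjusted p = 0.0019, edgeR), and the difference between the comparisons passed (adjusted p = 0.00802). *Fabp6*, the ileal bile acid binding protein, had 1267 to 1881 CPM and 1019 to 1733 CPM. Of 9 tested genes of this list, 1 (*Abcc2*) passed, as did 1 of 20 drug metabolism genes (*Abcb1a*). The other 36 of 42 lists held no changed gene. They include NRF2 targets (15 genes, median log2 −0.09), sterol and fatty acid synthesis (26 genes, 0.17) and interferon-stimulated genes (19 genes, −0.22).

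The 69 genes were followed in the 15 mice outside the comparison, as 10 and 30 µg/kg against vehicle, 0.01 and 0.03 µg/kg. All mice at vehicle, 0.01 and 0.03 µg/kg carried the first index use and all at 10 and 30 µg/kg the second. The effects of dose and of index use thus cannot be told apart in these mice either. There, 850 genes (5.08%) were higher and 467 (2.79%) lower (655 and 694 when scaled by library size alone). Of the 45 higher genes 43 (95.6%) were called higher again, and of the 24 lower genes 19 (79.2%) were called lower. Groups did not overlap for 20 of the 45 and 9 of the 24, against 3.95% of all genes tested. *Socs3* (log2 −0.17), *Trpc1* (0.07) and 9130230L23Rik (0.21) had the opposite sign there, and none of these 3 passed. Median log2 changes were 0.961 and 1.198 for the higher genes, and −0.96 and −1.24 for the lower genes, in the first and second comparison. The 69 were chosen on the first, so these medians are not a test. The difference between the comparisons passed for 118 of all genes (0.705%) and for 4 of the 69 (*Cyp1a1*, *Per2*, *Sprr2a2*, which may share reads with its close copy *Sprr2a1*, and 9130230L23Rik). *Cyp1a1* rose by a further 7.37 on the log2 scale (adjusted p = 0.00408) and *Per2* by 1.03 (adjusted p = 0.0351). For the other 8 clock genes that rose it ran from 0.37 (*Ciart*) to 0.88 (*Nr1d2*), and for the 3 that fell from −0.10 (*Npas2*) to −0.79 (*Arntl*), and none of these passed (adjusted p = 0.185 to 0.915).

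**Figure D4:**
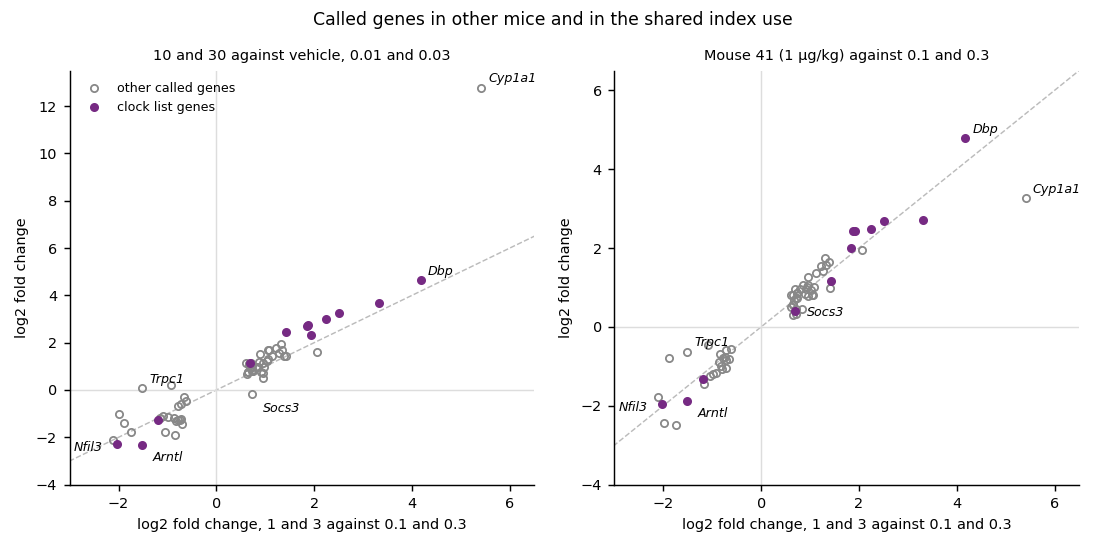
Log2 fold changes of the 69 genes between 1 and 3 and 0.1 and 0.3 µg/kg (x axis) against those in the other 15 mice (left) and those of mouse 41 (1 µg/kg) against the lower arm, all in the first index use (right), with clock genes filled and the dashed line at equality. On the left 39 of the 45 higher and 16 of the 24 lower genes had the larger change in the other mice, and *Cyp1a1* lies far above the line on the left and below it on the right.

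Each mouse was also placed on a scale from the lower-arm mean (0) to the upper-arm mean (1) of log2 CPM, as the median over the 12 clock genes and over the 56 genes outside *Cyp1a1* and the clock lists. Mouse 14, given 0.01 µg/kg, was at 0.98 for clock genes and 0.73 for the 56 others, and was nearer to the upper arm for 12 of 12 and 46 of 56. It had 27.6 CPM of *Dbp*, 15.7 CPM of *Arntl* and 0 counts of *Cyp1a1*. The other 8 mice at vehicle, 0.01 or 0.03 µg/kg lay at −0.35 to −0.10 for clock genes and −0.23 to −0.07 for the others, and the 6 mice at 10 or 30 µg/kg at 1.12 to 1.55 and 0.92 to 1.5. The 12 clock genes and most of the 56 others thus lay nearer to the upper-arm mean than to the lower-arm mean in 1 mouse without detected *Cyp1a1*. Some of them still lay outside the upper-arm range, such as *Per2*, with 38.4 CPM against 41.9 to 85.0 CPM. Without mouse 14, an alternative chosen after seeing the data, 64 of the 69 genes were called in the same direction in the other mice, against 62 with it.

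**Figure D5:**
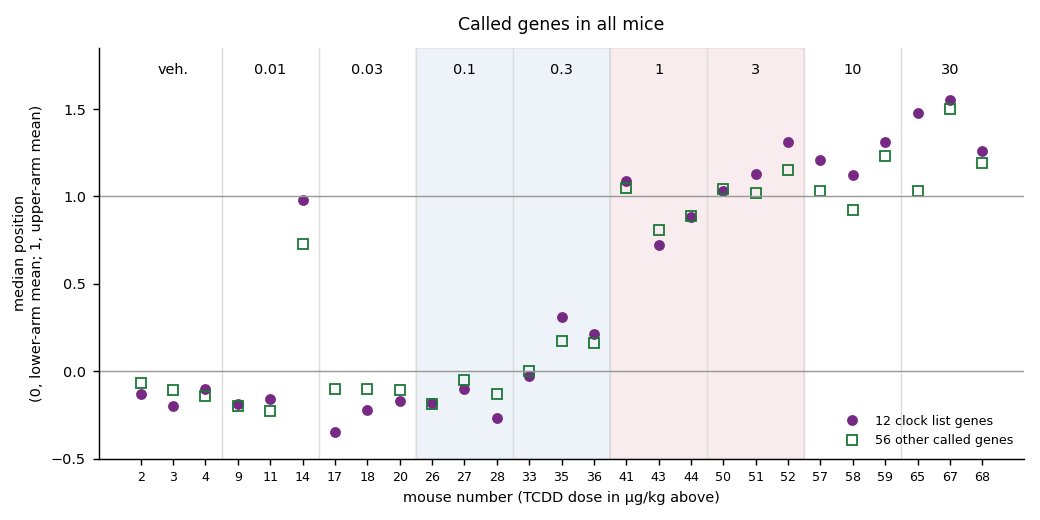
Median position of each of 27 mice between the lower-arm mean (0) and the upper-arm mean (1), for 12 clock genes (filled circles) and 56 other changed genes (open squares), with the lower arm shaded blue and the upper arm red. The 12 shaded mice define the scale. Mouse 14 (0.01 µg/kg) lies at 0.98 and 0.73, and mice 35 and 36 (0.3 µg/kg) lie between the arms.

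Library index use and the clock component both moved with the arms, and each was put into the fit. With mouse 41 as the only upper-arm mouse, compared within the first index use, *Dbp* rose by 4.79 and *Per3* by 2.67 on the log2 scale. With index use as a term, 4 genes were called higher (*Dbp*, *Per3*, *Ighv3-1* and *Igkv5-43*) and 1 (*Tmem252*) was lower. *Ighv3-1* and *Igkv5-43* are not among the 45 higher genes, so *Dbp* and *Per3* alone of the 45 kept their call. In both fits only the median log2 change was close to that in all mice, at 0.96 and 1.07 over the 45 higher genes and −1.01 and −1.16 over the 24 lower genes. Single genes differed either way. In the first fit *Slc13a1* rose by 0.30 (0.65 in all mice) and *Dbp* by 4.79 (4.18 in all mice). Mouse 41 was among the mice that chose the 69 genes, and both fits rest on it alone for the shared index use. *Cyp1a1* rose by 3.26 on the log2 scale in mouse 41, against 5.41 over both upper doses. Mouse 41 received 1 µg/kg, and *Cyp1a1* differed 9.56-fold between 1 and 3 µg/kg, so dose as well as index use differs between these 2 values. With index use as a term *Cyp1a1* rose by 4.78 and did not pass (adjusted p = 0.0630, edgeR). With the clock component as a term 0 genes were called, and *Cyp1a1*, with a log2 change of 4.54, did not pass (adjusted p = 0.881). That component is built from the clock genes and separates the arms in these mice, and its part in the other genes cannot be told apart from dose here.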

How the data were processed

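Ileal epithelium libraries of 27 mice were sequenced. Per the submitters' processing notes and the methods, the authors checked reads with FastQC 0.11.3, trimmed them with Trimmomatic 0.33, aligned them to GRCm38 with TopHat2 2.1.0 and Bowtie2, and used SAMtools 1.2.0 and HTSeq 0.6.1. They deposited raw counts per Ensembl gene, 1 table per mouse, without normalization. Counting options, including strand, are not given in the sources used here, so overlapping genes are uncertain. Rows that name no gene were removed (45.0 to 49.5% of uniquely aligned reads matched no counted feature in the 12 mice). Of 46078 genes, 45143 received a symbol from GENCODE M21.

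All 27 mice were fitted in 9 dose groups with edgeR 4.0.16 (R 4.3.3), TMM and filterByExpr, and mice were treated as independent. Log2 CPM used a prior count of 2. SEs are the estimate over the square root of F. DESeq2 1.42.0, limma 3.58.1, other scalings and filters, index use, a clock component and leaving out mice were alternatives. The script was checked on simulated counts. The comparison and gene lists were chosen with earlier results of these data known. Genes named are the 12 largest changes per direction among called, non-overlapping genes with a mean of at least 1 CPM (predicted genes and immunoglobulin segments left out), all called AhR and clock genes, up to 4 called genes of each other list, and 17 genes given whatever their result. The test of the difference between comparisons was added after seeing the data. Values of 2 genes are not reported here.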

Additional observations from a re-analysis of the deposited data

Results flagged for a closer look

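In 72 sets of 6 mice (each named gene in each arm), 5 values lay apart from the other 5 mice by more than Dixon's 95% critical ratio of 0.625, where chance flags about 1 in 20 sets. Mouse 41 (1 µg/kg) was highest for *Nr1d1*, with 224 CPM against 129 to 144 CPM in the other upper-arm mice (gap over range 0.798), and lowest for *Leo1*, with 10.2 CPM against 12.8 to 14.4 CPM (0.658). Mouse 43 (1 µg/kg) was highest for *Ier5*, with 70.3 CPM against 37.6 to 44.6 CPM (0.728), and lowest for *Nqo1*, with 7.37 CPM against 17.5 to 21.3 CPM (0.813). In the lower arm, mouse 26 (0.1 µg/kg) was lowest for *Nqo1*, with 12.8 CPM against 15.7 to 17.3 CPM (0.662).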

How the results depend on the processing

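Counts at the onset (45 higher, 24 lower) stayed within 1.5 times under DESeq2 (60 and 36), limma (43 and 31), other scalings, fits of the 12 mice alone and at least 10 counts in every mouse. They were 71 and 41 without a filter on low counts, 87 and 45 without a fold minimum and 21 and 11 at 2-fold or more. They were 28 and 11 without both intermediate mice at 0.3 µg/kg, and 0 and 0 with the clock component as a term. With index use as a term they were 4 and 1, of which *Dbp*, *Per3* and *Tmem252* alone are also among the 45 and 24. The fit within the first index use rests on mouse 41 alone, and its calls are not counted. The fit without both intermediate mice at 0.3 µg/kg leaves 1 mouse at that dose, and its calls are not counted either. Leaving out each mouse in turn gave 33 to 45 higher and 11 to 31 lower genes, with 13 and 11 lower genes without mouse 44 and mouse 52. Between 3 and 1 µg/kg, 0 genes were called in the fit of 12 mice, with at least 10 counts in every mouse and with limma, and 2 without a filter (0 to 2 on leaving out a mouse). Between 0.3 and 0.1 µg/kg, 1 gene was called without a filter. In the other 15 mice, at least 10 counts in every mouse left 559 higher and 292 lower genes. With the clock component as a term, log2 changes turned to −0.525 for *Nr1d1*, −0.075 for *Nr1d2*, −0.266 for *Abcc2*, 0.103 for *Nfil3*, 0.022 for *Arntl*, 0.248 for *Ypel2*, 0.04 for *Rnf125*, 0.151 for *Ier5* and −0.002 for *Nqo1*. Under the first index use and with index use as a term they turned to −1.28 and −1.60 for *Fgf15* and to −0.37 and −0.42 for *Slc51b*. *Cyp1a1* was 6.17 in the fit of 12 mice as 2 pooled groups and 6.18 without mouse 36, and *Dbp* and *Ciart* were 4.82 and 4.04 without both intermediate mice. On leaving out each mouse, *Slc51b* ran from −0.019 (without mouse 43) to 0.17, and *Tiparp* was 0.029 without both intermediate mice. The cause was not tested, except that the component is built from clock genes and the index fits rest on mouse 41. No paired analysis was possible because the labels give the groups no shared replicate numbers. Cage was not separated from dose.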
